A study of Mus musculus with 8 samples.

Results

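The stria vascularis genes described here were 7 transcripts of the cochlear lateral wall, chosen by name: Slc12a2, Bsnd, Atp1b2, Esrrb, Hmx2, Cldn11 and Slc26a4. All 7 were in the deposited table of 78317 genes, and all 7 were among the 17811 genes tested, those whose average over the libraries reached 1 TPM (transcripts per 1000000, a level scaled by transcript length and library). Mouse cochlear basilar membrane was the source of the RNA, taken at postnatal day 6, with 4 libraries titled hete and 4 titled homo. The genotype tag reads WT for hete and Dnajc17 cKO for homo, so whether the hete animals carry 1 mutant allele cannot be told from the labels, and the title words are used. The driver of the conditional deletion, the deleted exons and any pooling of animals are not stated in the labels. Dnajc17 itself, a gene of a DNAJ-type cochaperone, was not lower in homo: its level in replicates 1 to 4 was 26.51, 25.45, 25.09 and 22.06 TPM (hete) and 29.33, 27.65, 31.08 and 18.04 TPM (homo), so 3 of the 4 homo libraries stood above every hete library and homo replicate 4 below all of them. Its log2 fold change was 0.07, with a limma-trend adjusted p of 0.969. A gene-level TPM can include exons outside the deleted part and cells without the deletion, so it does not check the labels, and hete and homo stand throughout for libraries labelled so, in every direction given. No label says that the 4 libraries of a group came from separate animals, so the p-values rest on a spread among libraries that may be technical.

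The stria vascularis is the epithelium of the lateral wall that secretes potassium into the endolymph and sets the endocochlear potential. Its marginal cells take up potassium from the narrow space beneath them with the sodium-potassium ATPase and the cotransporter encoded by Slc12a2, return chloride through channels that need barttin, the product of Bsnd, and release potassium at the apex through the channel formed by Kcnq1 and Kcne1. Its intermediate cells are melanocyte-like and generate the potential through Kcnj10, and its basal cells seal the layer with tight junctions of claudin-11, the product of Cldn11. Slc26a4 encodes pendrin, the anion exchanger of spindle and root cells beside the stria. Loss of Slc12a2, Bsnd, Esrrb, Cldn11 or Slc26a4 is known to impair hearing.

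The lateral wall is a separate part of the cochlea from the basilar membrane, and the level of its other marker genes was therefore read in each library first. Kcnq1 and Kcne1, the defining pair of marginal cells, were at 68.86 to 108.62 TPM and 229.74 to 356.29 TPM over the 8 libraries. The intermediate cell and melanocyte gene Dct was at 675.04 to 1028.23 TPM, and Otos, a fibrocyte gene of the spiral ligament, at 828.16 to 1332.16 TPM. The labelled tissue was also present: the hair cell motor gene Myo7a was at 14.1 to 20.85 TPM, and the supporting cell gene Tectb at 3847.26 to 4879.41 TPM. Tyrp1, a pigment enzyme gene of melanocytes, was the exception in its list, at 0.08 to 0.25 TPM in hete and 0.31 to 0.52 TPM in homo. These ranges do not overlap, but the gene is below the filter on low values and was not tested. In bulk RNA of this kind, fewer cells of a type and less RNA per cell cannot be told apart.

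Regulatory sequence was examined because 2 members encode DNA-binding proteins: Esrrb, an orphan nuclear receptor needed for marginal cells, and Hmx2, a homeobox factor of the inner ear. RefSeq promoter entries (build GRCm38.p6) were matched by symbol for 4 of the 7 members, with 6 start sites: Cldn11, Esrrb, Hmx2 and Slc26a4. No entry was matched for Slc12a2, Bsnd or Atp1b2, so their promoters were not searched. The 250 bases before each start were searched on both strands for the estrogen-related receptor element TCAAGGTCA, its half-site AAGGTCA, which lies within the longer element, the HMX core CAAGTG and the TATA box TATAAA. The 3 windows with a match are printed 5′ to 3′ on the gene's strand, with the match in capitals: the first Esrrb start (chr12:86360867-86361116, plus strand), the first Hmx2 start (chr7:131548507-131548756, plus strand) and Slc26a4 (chr12:31559985-31560234, minus strand).

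Esrrb: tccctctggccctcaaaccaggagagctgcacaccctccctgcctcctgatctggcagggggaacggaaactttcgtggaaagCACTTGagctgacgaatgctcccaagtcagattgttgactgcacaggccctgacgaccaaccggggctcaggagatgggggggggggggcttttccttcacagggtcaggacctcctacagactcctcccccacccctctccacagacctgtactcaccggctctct
Hmx2: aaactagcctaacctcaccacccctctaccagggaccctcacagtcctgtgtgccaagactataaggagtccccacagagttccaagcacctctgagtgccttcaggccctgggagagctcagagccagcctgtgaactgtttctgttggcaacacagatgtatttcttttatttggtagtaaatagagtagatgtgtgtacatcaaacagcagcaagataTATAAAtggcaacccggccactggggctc
Slc26a4: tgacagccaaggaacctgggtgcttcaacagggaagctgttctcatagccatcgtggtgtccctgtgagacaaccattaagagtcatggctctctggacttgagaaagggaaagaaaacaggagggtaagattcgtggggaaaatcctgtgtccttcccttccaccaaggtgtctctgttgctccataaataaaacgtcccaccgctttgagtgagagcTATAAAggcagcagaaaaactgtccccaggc

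The receptor element and its half-site were in none of the 6 member windows, and in 0.387% and 4.08% of all 32851 windows of the same length. The HMX core was in 1 of the 6, the first Esrrb start, where it lay on the reverse strand from 167 bases before the start, and in 11.6% of all windows. A TATA box was in 2 of the 6 windows, from 29 bases before the first Hmx2 start and 31 bases before the Slc26a4 start, and in 12.4% of all windows. These matches describe the letters of these windows only.

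Per length, the most abundant member was Cldn11, with a mean of 540.1 TPM over the 8 libraries, and the order went on with Atp1b2 (492.1 TPM), Slc12a2 (305.9 TPM), Esrrb (101.7 TPM), Bsnd (29.0 TPM), Slc26a4 (17.3 TPM) and Hmx2 (14.9 TPM). Cldn11 and Atp1b2 overlapped, Cldn11 being the higher in 6 of 8 libraries. The ranges of Slc26a4 and Hmx2 overlapped too, although Slc26a4 was the higher of them in all 8. The other neighbours in the order did not overlap in any library. Cldn11, Atp1b2 and Slc12a2 stood above 98.7%, 98.6% and 97.8% of tested genes, and Hmx2 above 51.4%.

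Slc12a2 (ENSMUSG00000024597) encodes NKCC1, which carries sodium, potassium and chloride together into the cell. In replicates 1 to 4 its level was 319.89, 277.36, 298.17 and 358.5 TPM (hete) and 297.02, 267.34, 307.02 and 321.73 TPM (homo), and the other members are given in the same order. The groups overlapped, with hete replicate 4 the highest library and homo replicate 2 the lowest. Fold changes are given as the difference of mean log2(TPM + 1), homo minus hete, which understates the change of low genes. For Slc12a2 limma-trend put it at -0.07, with an SE of 0.09, a 95% interval of -0.27 to 0.13 and an adjusted p of 0.94. It was -0.0018 without hete replicate 4.

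Bsnd (ENSMUSG00000025418), the chloride channel subunit barttin, was at 32.24, 28.4, 27.36 and 34.1 TPM in hete and 23.6, 26.27, 32.31 and 27.58 TPM in homo. Its lowest 2 libraries were homo replicates 1 and 2, but homo replicates 3 and 4 lay within the hete range and the groups overlapped. Its log2 fold change of -0.15 lay farthest from 0 among the 7, with an SE of 0.11, an interval of -0.39 to 0.09 and a limma-trend adjusted p of 0.874. It was -0.0849 without homo replicate 1, -0.0983 without hete replicate 4 and -0.23 without homo replicate 3, the last with an unadjusted limma p of 0.0476 and an adjusted p of 0.991. An absolute log2 fold change of at least 0.15 was found in 29.9% of all tested genes.

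Atp1b2 (ENSMUSG00000041329) encodes the beta-2 subunit of the sodium-potassium ATPase, which helps bring the pump to the membrane and is also made by glia. It was at 456.62, 470.48, 464.25 and 675.67 TPM in hete and 546.04, 400.88, 502.59 and 420.58 TPM in homo. Hete replicate 4 stood alone above every other library, while the other 3 hete libraries lay close to each other and inside the homo range. Its log2 fold change came to -0.14, with an SE of 0.14, an interval of -0.46 to 0.19 and a limma-trend adjusted p of 0.922. It was 0.0002 without hete replicate 4.

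Esrrb (ENSMUSG00000021255) had the smallest SD within groups of the members, at 98.57, 100.72, 105.24 and 112.61 TPM in hete and 95.68, 90.84, 110.34 and 99.29 TPM in homo. That SD was 0.10 on the log2 scale, where the median of all tested genes was 0.16, and its highest library exceeded its lowest 1.24-fold, against 1.22-fold for Cldn11. The groups overlapped (a fold change of -0.08, with an SE of 0.07, an interval of -0.24 to 0.09 and a limma-trend adjusted p of 0.913). Hmx2 (ENSMUSG00000050100) varied more, at 14.89, 13.3, 13.46 and 19.14 TPM in hete and 11.81, 12.32, 16.6 and 17.31 TPM in homo. Homo libraries 3 and 4 lay above 3 of the 4 hete libraries, and homo libraries 1 and 2 below all 4 (a fold change of -0.07, with an SE of 0.15, an interval of -0.41 to 0.27 and a limma-trend adjusted p of 0.969). The value for Hmx2 was 0.04 without hete replicate 4.

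Cldn11 (ENSMUSG00000037625), which is also a myelin gene of the central nervous system, was at 564.56, 500.31, 576.7 and 562.37 TPM in hete and 506.85, 488.99, 598.88 and 521.96 TPM in homo. Its highest library was homo replicate 3 and its lowest homo replicate 2, so the homo range enclosed the hete range (a fold change of -0.06, with an SE of 0.08, an interval of -0.24 to 0.12 and a limma-trend adjusted p of 0.94). Slc26a4 (ENSMUSG00000020651) was at 16.01, 15.17, 15.7 and 20.25 TPM in hete and 15.1, 14.54, 21.76 and 19.72 TPM in homo. It was the 1 member higher in homo (a fold change of 0.07, with an SE of 0.14, an interval of -0.25 to 0.38 and a limma-trend adjusted p of 0.967), which became -0.03 without homo replicate 3. The value for Slc26a4 was 0.16 without hete replicate 4.

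**Figure D1:**
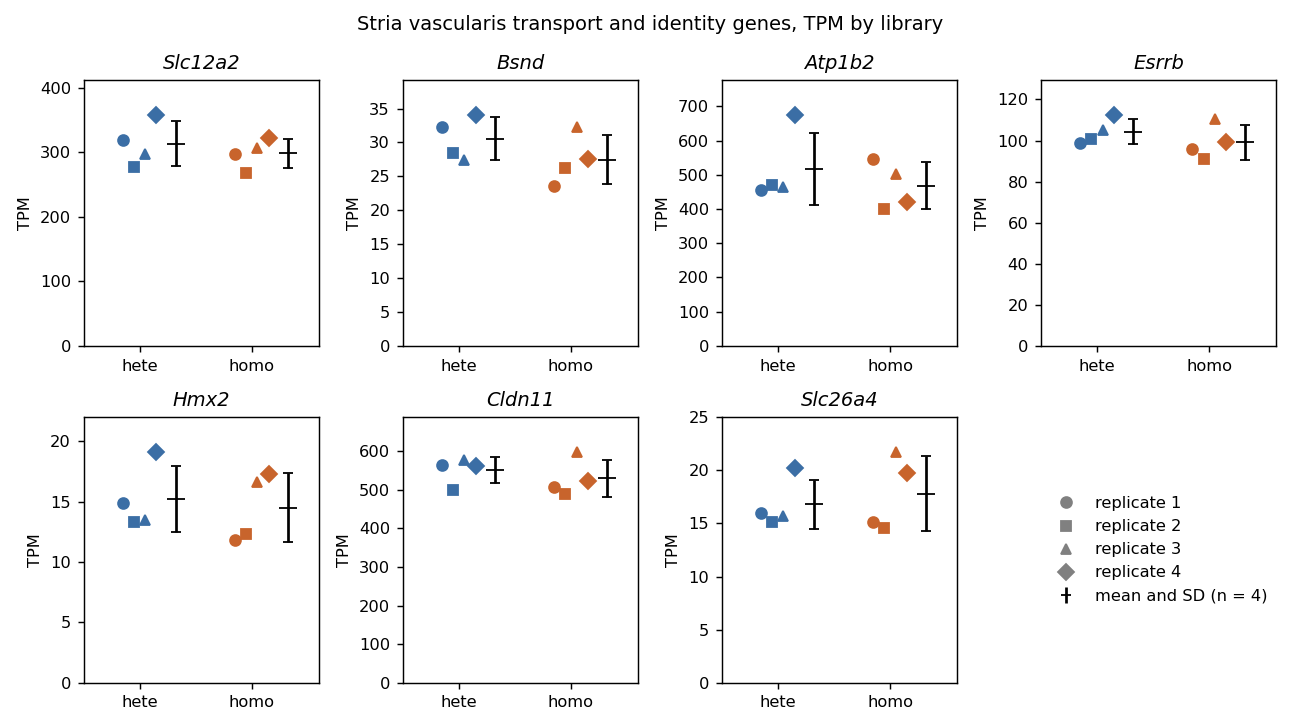
TPM of each of the 7 genes by library; blue points are hete, orange points homo, the marker shape gives the replicate number, and the black bar is the mean with its SD (n = 4). Hete and homo libraries overlap for every gene, and hete replicate 4 is the highest library for Slc12a2, Bsnd, Atp1b2, Esrrb and Hmx2.

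In all, 0 of the 7 members passed an adjusted p under 0.05 in limma-trend, where 0.0112% of all tested genes did, and 0 passed an unadjusted p under 0.05, where 6.05% did. The libraries of both groups overlapped for each member; they did not overlap for 3.99% of tested genes. The log2 fold change was below 0 for 6 of 7, against 43.7% of tested genes, and the median over the members was -0.07 against 0.02 over all tested genes. Without hete replicate 4 the members' median was -0.0018 and 4 of 7 were below 0; without homo replicate 3 it was -0.13 and all 7 were. The 95% intervals of the 7 genes reached from -0.46 to 0.38, and larger differences in either direction lie outside them.

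**Figure D2:**
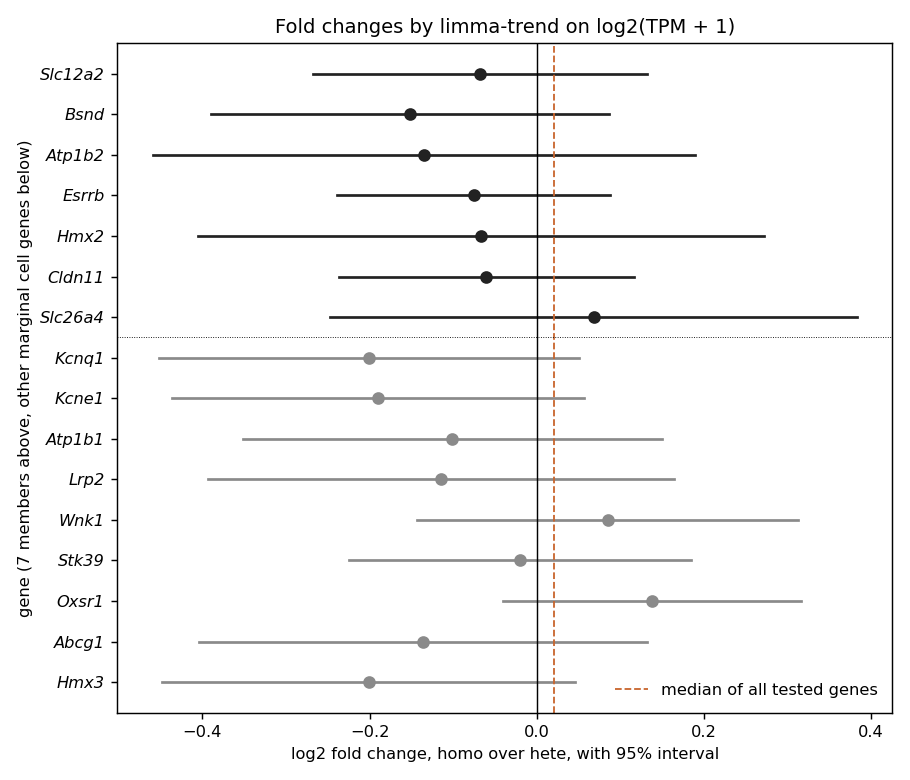
Difference of mean log2(TPM + 1), homo minus hete (x axis), with its 95% interval for the 7 members (black) and 9 of the 12 other marginal cell genes (grey); the dashed line is the median of all tested genes, 0.02. Every interval crosses 0.

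Libraries of the same group stood apart in the members. In hete replicate 4 and homo replicate 3 all 7 stood above their own mean of the 8 libraries, and in hete replicate 2 and homo replicate 2 all 7 stood below it. The mean deviation over the 7 was 0.25 in hete replicate 4, 0.14 in homo replicate 3, -0.09 in hete replicate 2 and -0.19 in homo replicate 2 on the log2(TPM + 1) scale. Hete replicate 4 was the highest library for 5 of the 7, and homo replicate 3 for Cldn11 and Slc26a4. The lowest library was homo replicate 2 for Slc12a2, Esrrb, Cldn11, Atp1b2 and Slc26a4, and homo replicate 1 for Bsnd and Hmx2. Over all tested genes, hete replicate 4 was the highest library for 22.4%, more than any other library, and homo replicate 2 was the lowest for 10.1%.

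**Figure D3:**
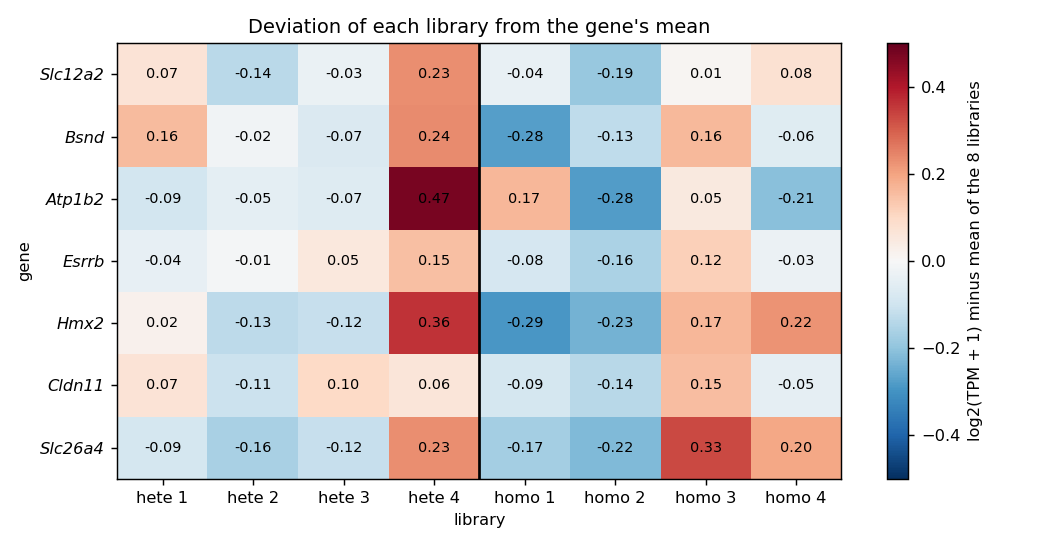
Deviation of log2(TPM + 1) from the gene's mean of the 8 libraries, for 7 genes (rows) and 8 libraries (columns); red is above and blue below the mean, and the black line parts hete from homo. The columns of hete replicate 4 and homo replicate 3 are above 0 throughout, and those of hete replicate 2 and homo replicate 2 below 0 throughout.

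Over the 8 libraries all 21 pairs of members had a Pearson r above 0, from 0.35 for Cldn11 with Atp1b2 to 0.90 for Hmx2 with Slc26a4, with a median of 0.67. For Hmx2 and Slc26a4, r was 0.90 (exact permutation p = 0.00387, adjusted over the 21 pairs 0.0708) and Spearman's rho 0.90 (exact permutation p = 0.00456, adjusted 0.0479). Without hete replicate 4 and homo replicate 4, the libraries farthest from the median of Hmx2, r was 0.87. For Slc12a2 and Hmx2, r was 0.84 (exact permutation p = 0.00675, adjusted 0.0708) and rho 0.90 (exact permutation p = 0.00456, adjusted 0.0479), and r was 0.67 without hete replicate 4 and homo replicate 2. No pair passed 0.05 after adjustment of Pearson's p, and these 2 pairs did with Spearman's. Other relations rested on that pair of libraries: r of Slc12a2 with Esrrb went from 0.67 to -0.04 without both and to 0.44 without hete replicate 4 alone. For Slc12a2 with Atp1b2 it went from 0.66 to -0.42 and to 0.19. Without hete replicate 4, 19 of the 21 pairs stayed above 0, the exceptions being Atp1b2 with Bsnd (-0.11) and with Hmx2 (-0.20), and the median r was 0.58. All values share the library and its scaling to 1000000 TPM, the libraries of both groups were pooled, and 4 libraries a group are too few for a value within each.

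**Figure D4:**
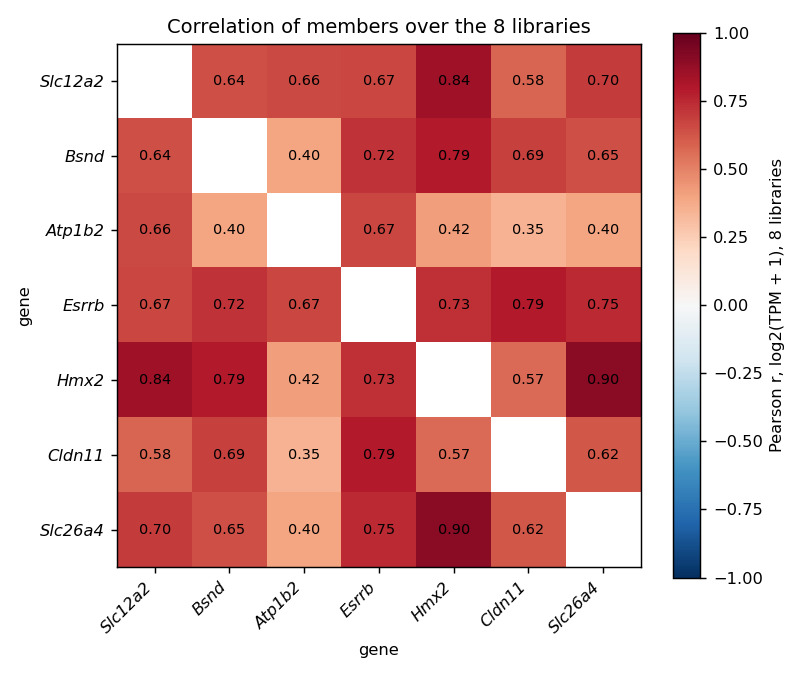
Pearson r of log2(TPM + 1) between each pair of the 7 genes over the 8 libraries (both axes list the genes; red is positive). All 21 values are positive, and the lowest are those of Atp1b2 with Cldn11, Bsnd, Slc26a4 and Hmx2.

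The genes whose deviations from the group means were most like those of each member, over the 8 libraries and among 11581 other protein-coding genes averaging 5 TPM or more, had r of 0.96 to 0.99. Those of Slc12a2 were Met, a receptor gene used as an intermediate cell marker (0.97), Elovl7 (0.97) and Slmap (0.97). Esrrb was most like Meis1 (0.99), a homeobox gene, Ccnd3 (0.98) and Erc1 (0.97), and Bsnd most like Ogfod3 (0.97), Rusc2 (0.96) and Rassf7 (0.96). Hmx2 was most like Tbc1d10a (0.99), Syngr1 (0.98) and Osbpl10 (0.96), and Osbpl10 also led for Slc26a4 (0.97), followed by Ddhd2 (0.97) and Utp15 (0.96). Cldn11 was most like Plat (0.97), Gstm2 (0.97) and Drg1 (0.96), and Atp1b2 most like Sbno1 (0.99), Ank (0.99) and Hpcal1 (0.98). With 8 libraries and this many candidates such values are a description and carry no p.

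Lateral wall lists, none of which holds a member, were added up in each library. The 12 other marginal cell genes summed to 1972.13 to 2734.09 TPM in hete and 1883.99 to 2081.35 TPM in homo, with hete replicate 4 at 129.2% of the mean of the 8 libraries and homo replicate 2 lowest at 89.0%. The 14 intermediate cell and melanocyte genes reached 123.8% in hete replicate 4 and 106.7% in homo replicate 3, and were lowest in hete replicate 2, at 87.2%. The 6 basal cell genes were at 114.8% in hete replicate 4, 109.9% in homo replicate 1, 107.9% in homo replicate 3 and 85.2% in homo replicate 2. The 7 members summed to 118.8% of their mean in hete replicate 4, 105.9% in homo replicate 3, 93.7% in hete replicate 2 and 86.7% in homo replicate 2. The connexin genes Gjb2 and Gjb6, which supporting cells also express, made up 80.2% of the basal cell sum. Without them hete replicate 4 was at 102.2%, below homo replicate 1 (108.6%) and homo replicate 3 (104.8%). By the mean of log2(TPM + 1), which weights genes equally, hete replicate 4 was highest for the marginal cell (0.19 above the list's mean) and intermediate cell lists (0.23), while for the basal cell list it stood at 0.10, below homo replicate 1 at 0.16.

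Among the other lists, hete replicate 4 was highest for the spindle and root cell and hair cell sums, but not for the rest. The 9 spiral ligament fibrocyte genes, also of the lateral wall, were lowest in hete replicate 4 (87.4%) and highest in homo replicate 1 (115.2%). The most abundant gene of the list made up most of that sum, at 2302.32 TPM in hete replicate 4 and 3520.92 TPM in homo replicate 1. Otos, the next in level, was lowest in homo replicate 3 and highest in homo replicate 4. By the mean of log2(TPM + 1), hete replicate 4 was again lowest (-0.09 from the list's mean) and homo replicate 1 highest (0.14). The summed 3 spindle and root cell genes were highest in hete replicate 4 (125.5%), as was each of them singly. Epyc made up most of the sum, at a mean of 1536.5 TPM over the 8 libraries, against 206.2 TPM for Anxa1. The summed hair cell genes, which belong to the labelled tissue, were highest in hete replicate 4 (157.0%) and lowest in homo replicate 3 (69.7%). Ocm, which encodes an outer hair cell calcium buffer, made up 61.4% of that sum in hete replicate 4 and 28.6% in homo replicate 3. The 9 genes left without Ocm were at 113.0% and 92.7% in these libraries. Hete replicate 4 was the highest library for 6 of the 9 tested hair cell genes, Ocm among them. Over all tested genes it was the highest for 22.4%. Myo7a went the other way and was lowest in hete replicate 4, at 14.1 TPM. The 9 supporting cell genes summed to 4604.14 to 5030.11 TPM in hete and 5472.12 to 5861.01 TPM in homo, without overlap. Tecta and Tectb, which encode proteins of the tectorial membrane, made up 93.6% of the sum, and the other 7 genes overlapped, at 294.05 to 380.35 TPM in hete and 319.1 to 367.14 TPM in homo. Singly, Tecta, Tectb and Otog, also a tectorial membrane gene, did not overlap between groups, 3 of 9 genes where 3.99% of tested genes did not. Their limma-trend adjusted p ran from 0.623 to 0.687, and the list was chosen with earlier results of these data known. The 5 vestibular and endolymphatic epithelium genes were lowest in hete replicate 4 (89.7%) and highest in homo replicate 3 (111.6%), with Foxi1 listed at 0 in each library and Oc90 making up most of the sum. The 10 glial genes ran from 67.9% in homo replicate 3 to 127.3% in homo replicate 1, and by the mean of log2(TPM + 1) were lowest in hete replicate 1. The part of these shifts in the members' fold changes was not tested; without hete replicate 4, the difference of the log2 sums, homo minus hete, went from -0.09 to -0.02 for the members and from -0.12 to -0.02 for the marginal cell genes.

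**Figure D5:**
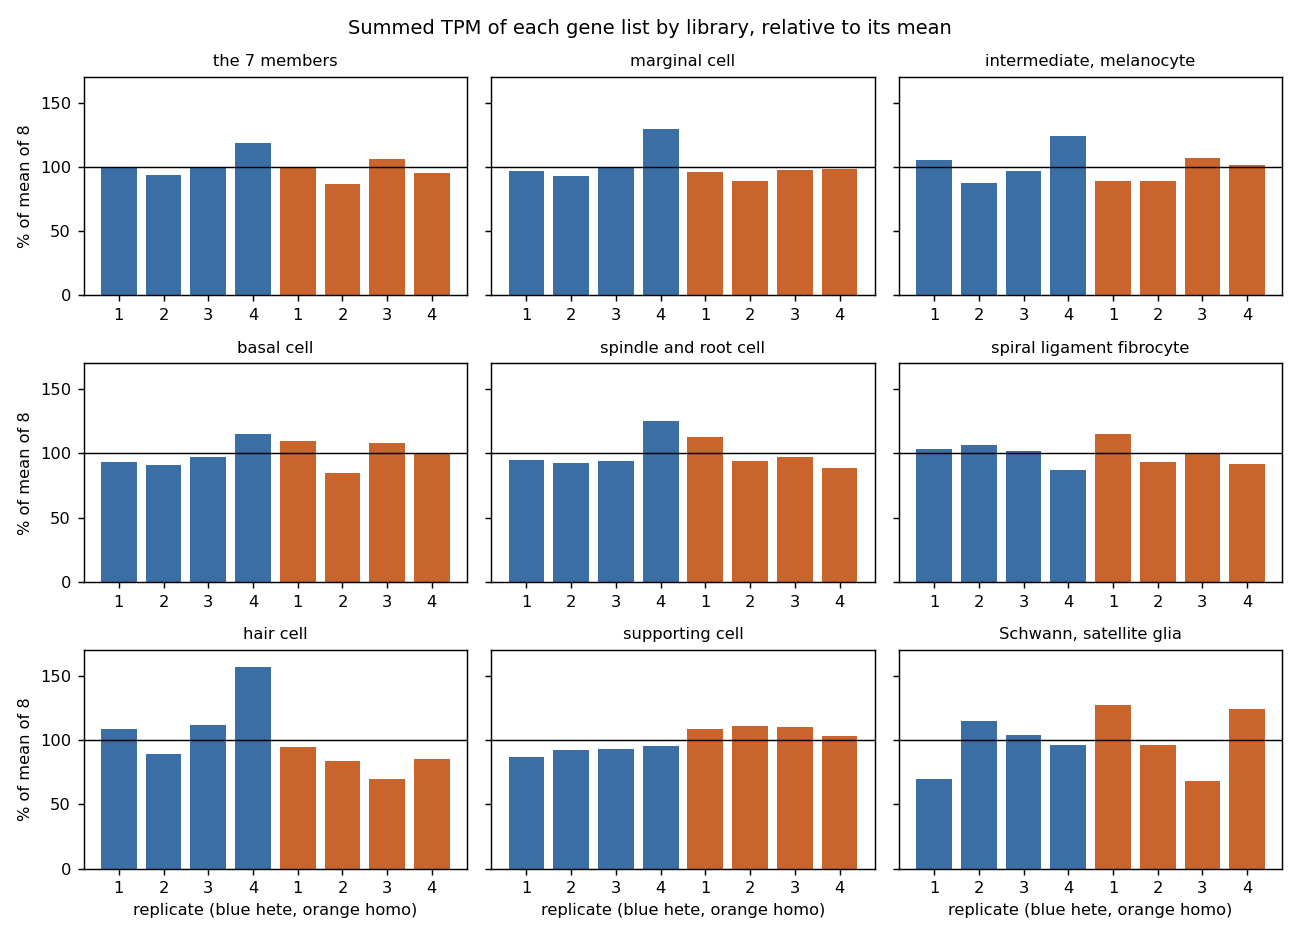
Summed TPM of each list in each library as a percentage of the list's mean of the 8 libraries (bars start at 0; blue hete, orange homo; the line is 100%). Hete replicate 4 is the highest bar for the members and the marginal, intermediate, basal, spindle and root, and hair cell lists, and the lowest for spiral ligament fibrocytes.

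Gene by gene, no gene of these lists passed an adjusted p under 0.05 in limma-trend. Of the 12 marginal cell genes 9 were lower in homo and 3 higher, and their median was -0.11 on the log2 scale; 0 passed an unadjusted p under 0.05. The apical potassium channel pair stood at 89.6 ± 14.4 and 77.4 ± 7.39 TPM (SD, n = 4 each) for Kcnq1, with a log2 fold change of -0.20, and at -0.19 for Kcne1. Kcnq1 overlaps the antisense transcript Kcnq1ot1, and whether the counting used strand is not stated, so its level is uncertain. Hmx3, a homeobox gene next to Hmx2 on the chromosome, was at 31.5 ± 2.03 and 27.5 ± 4.33 TPM (-0.20, SE 0.11), and Oxsr1, a kinase that activates NKCC1, at 23.8 ± 1.84 and 26.3 ± 1.82 TPM (0.14, SE 0.08). Hete replicate 4 was the highest library for 8 of the 12.

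Of 13 tested intermediate cell and melanocyte genes 8 were lower and 5 higher (median -0.03). Ednrb, the endothelin receptor of melanocytes, which is also made by other cells, had the smallest p of the list. Its mean was 77.1 ± 7.88 TPM for hete and 89.9 ± 8.86 TPM for homo (SD, n = 4), a log2 fold change of 0.22 with an SE of 0.09 and a limma-trend adjusted p of 0.802. Mlana, a melanosome gene, had a log2 fold change of -0.27 (SE 0.17) and Mitf, the melanocyte transcription factor, 0.15 (SE 0.12). Of the 6 basal cell genes 2 were lower and 4 higher (median 0.02), with the transcription factor genes Nr2f2 at 0.11 (SE 0.07) and Sox8 at -0.09 (SE 0.13) and the junction gene Tjp1 at 0.04 (SE 0.06). All 3 spindle and root cell genes were lower (median -0.03), with Anxa1 at -0.20 (SE 0.10). Of the 9 fibrocyte genes 8 were higher and 1 lower (median 0.06), with the transcription factor genes Pou3f4 at 0.09 (SE 0.08) and Tbx18 at 0.08 (SE 0.06).

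Within their gene families most members were the leading transcript per length. Cldn11 was the highest of 24 claudins in all 8 libraries, followed by Cldn9 at a mean of 171.7 TPM and Cldn3 at 74.8 TPM. Slc12a2 was the highest of 9 cation-chloride cotransporter genes in all 8, and Slc12a7, a potassium-chloride cotransporter gene, had a mean of 65.6 TPM. The kidney cotransporter genes Slc12a1 and Slc12a3 stayed under 1 TPM in every library. Esrrb was the highest of the 3 estrogen-related receptor genes in all 8, ahead of Esrra (34.1 TPM) and Esrrg (4.39 TPM). Slc26a4 was the highest of 11 anion exchanger genes in 7 of 8 libraries, and in homo replicate 1 it was exceeded by Slc26a7, at 16.43 against 15.1 TPM. Slc26a5, which encodes prestin of outer hair cells, had a mean of 5.02 TPM.

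Among the 3 beta subunit genes of the sodium-potassium ATPase, Atp1b2 led in all 8 libraries, with Atp1b1 at a mean of 345.8 TPM and Atp1b3 at 146.1 TPM. The ratio of Atp1b2 to Atp1b1, which is free of the scaling of the library, was 1.43 ± 0.09 for hete and 1.42 ± 0.27 for homo (SD, n = 4), from 1.12 in homo replicate 4 to 1.72 in homo replicate 3. Hmx3 exceeded Hmx2 in all 8 libraries, 1.79 to 2.30-fold, while Hmx1 was listed at 0 in each. The ratios were chosen after their values were seen and were not tested.

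In the authors' deposited table of gene ontology enrichment for the same comparison, none of the 7 members was among the 60 genes named. TPM were deposited for 78317 genes, so a count of 0 says little about the members. Of all genes in the lists above, Tyrp1 alone was named there, in 18 terms; the authors' deposited table gives adjusted p = 0.769 as the lowest of these.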

How the data were processed

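Stranded mRNA libraries were made from total RNA of the basilar membrane, per the labels' protocols, and 8 were used, 4 hete and 4 homo, grouped by sample title. The authors deposited TPM for 78317 genes, a unit defined to add up to 1000000 in a library. The submitters' processing notes list the build GRCm39 and the tools fastp, HISAT2, StringTie, RSEM and DESeq2, but neither versions nor what each was used for. Library depth is unknown, since TPM does not hold it, and no counting interval was computed. The authors also deposited p-values for gene ontology terms, raw and adjusted, used only to look up the members. A deposited table of splicing event totals was not used, as it names no gene.

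Genes averaging 1 TPM or more were fitted as log2(TPM + 1) with limma 3.58.1 (R 4.3.3), trend and robust eBayes, genotype as the only term, and Benjamini-Hochberg adjustment over all 17811 genes. Tests on read counts were not run, since TPM are not counts. The members and lists were chosen with earlier results of these data known. Named are the members, up to 3 genes of each lateral wall list with the smallest p, family members by level, and the 3 genes most like each member; others named were chosen after their values were seen. Lists are described without a test, and some of their genes, which enter sums and counts, are not reported here by name. Permutation p-values of correlations are exact and two-sided. Alternatives were quantile normalization, rescaling over protein-coding nuclear genes, other filters, a pseudocount of 0.1, a replicate block, eBayes without the robust option and each library left out. Figures used matplotlib 3.10.9 (Python 3.11.15).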

Additional observations from a re-analysis of the deposited data

Results flagged for a closer look

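Within a group of 4, a library was singled out where its gap to the nearest of the others took a larger share of the group's range than Dixon's 95% critical value. In 64 groups of values 6 were singled out; chance alone gives about 1 in 20. In hete replicate 4, Atp1b2 was at 675.7 TPM against 456.62 to 470.48 in the other hete libraries, and Slc26a4 at 20.25 TPM against 15.17 to 16.01. The same library held Stk39, a kinase that activates NKCC1, at 80.08 TPM against 61.9 to 64.17. Its summed TPM of the spindle and root cell genes was 2200.9 against 1625.64 to 1668.37, and Epyc held 1920.57 TPM of it. In homo replicate 1, Wnk1, a kinase upstream of Stk39, was at 179.9 TPM against 147.51 to 152.37 in the other homo libraries. In homo replicate 2, the ratio of Hmx3 to Hmx2 was 2.149 against 1.81 to 1.85.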

How the results depend on the processing

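Under the 7 settings that left out no library, all 49 values of the members kept their direction, and no member passed an adjusted p of 0.05 under any alternative (0.816 to 1.00). With 1 library left out, 51 of 56 kept their direction. The log2 fold change ranged from -0.12 to -0.00 for Slc12a2, -0.23 to -0.08 for Bsnd, -0.13 to -0.04 for Esrrb, -0.12 to -0.02 for Cldn11, -0.15 to 0.04 for Hmx2, -0.21 to 0.00 for Atp1b2 and -0.03 to 0.16 for Slc26a4, and the members' median from -0.13 to -0.00. The sign turned for Hmx2 on leaving out hete replicate 4 (0.0427), the first homo library (0.019) or the second (0.0003), for Atp1b2 without hete replicate 4 (0.0002) and for Slc26a4 without homo replicate 3 (-0.0304); the cause was not tested. Over all genes 2 passed the threshold, 1 with no filter on low values, 1 with the replicate block, and 1 to 5 with a library left out (1 without hete 1, homo 2 or homo 3, 4 without homo 1 or homo 4, 5 without hete 3). Same-numbered libraries did not deviate together (correlations of -0.08, -0.03, 0.05 and 0.01 for numbers 1 to 4), so the numbers are not taken as pairs, and the replicate block changed no call of a member. Of the differences of log2 sums, homo minus hete, that of vestibular genes went from 0.11 to -0.0944 without Oc90. That of hair cell genes went from -0.46 to -0.0838 without Ocm and to -0.17 as a mean of log2(TPM + 1), and that of supporting cell genes from 0.24 to 0.36 without Tectb, 0.096 without Tecta and Tectb and 0.12 as such a mean. The list sums and correlations without hete replicate 4, and the sums without Gjb2 and Gjb6 or Tecta and Tectb, were added after the data were seen. With an unknown depth, counting error cannot be separated from other spread.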
